A study of Caenorhabditis elegans with 10 samples.

Results

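The comparison described here sets wild-type C. elegans held at 4°C for 1 day against animals collected at 20°C, by ribosome profiling. Ribosome profiling sequences the short mRNA fragments that a translating ribosome protects, called footprints, so that the footprints of a gene reflect how much of the ribosome pool it occupied. The series holds 10 whole-animal samples in 5 conditions, with 2 replicates each, and 4 of them enter here. All animals were of the N2 strain, grown from synchronized L1 larvae on OP50 bacteria at 20°C up to 1-day-old adults. The 4°C animals were then passed through 10°C, for 2 h by the treatment protocol and 3 h by the sample labels, and kept at 4°C for 1 day. The 20°C animals were collected at the end of growth, when the others were moved, so the effect of cold and that of time passed cannot be told apart. No mutation, transgene or drug was used in either group.

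Expression was given as FPKM, footprints scaled by coding length and by the total of the column, in 1 column per condition that pools both replicates. There was therefore no replicate error and no test between the conditions, and ratios carry 95% intervals that cover counting error only. Of 19985 genes in the table, each read from the transcript with the highest mean over the 5 conditions, 9945 had a mean of at least 1 FPKM and were compared as the difference of log2(FPKM + 0.5). A gene was called higher or lower when this difference reached 2-fold. It was called clearly so when it also had at least 10 counts over both conditions and the interval of its FPKM ratio left out 1. Where a gene had 0 counts in a condition, the fold is a bound against a floor of 3 counts in the pooled column. It is not a minimum: for lips-11 it was 36.8, and the lower end of the 95% interval was 29.8.

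Cold slows every reaction of a worm at once and stiffens its membranes, and nematodes that were first cooled mildly survive near-freezing temperatures for days in a state that has been likened to hibernation. Membrane fluidity is normally kept by fatty acid desaturases, which put double bonds into acyl chains. Misfolded proteins or unbalanced lipids in the endoplasmic reticulum (ER) activate sensors such as IRE-1, which splices the mRNA of the transcription factor XBP-1, a response known as the unfolded protein response. FPKM is a share of each column, so that a fall in total protein synthesis is not seen in it, and mRNA levels were not analysed here.

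The column of day 1 at 4°C held 2657757 counts over all transcripts, 3.93 times the 675550 counts of the 20°C column. In these totals a footprint can count for more than 1 transcript of a gene. With 1 transcript per gene, the totals were 1560274 and 424059 counts. Of the kept genes, 245 had no count at 4°C and 874 had none at 20°C, so that low genes were read less firmly at 20°C. Markers of several tissues were detected in both columns. Of 18 kept intestine markers, 17 lay above 1 FPKM at 4°C and 18 at 20°C, with 26 and 27 of 27 for body wall muscle. Neurons gave 14 and 13 of 14, and germline P granule genes 28 of 28 in each. Kept genes had passed a mean of 1 FPKM, so that these shares were high by selection and do not test the label whole animal. Of 30 listed neuron markers only 14 were kept, against 18 of 18 for the intestine. In whole animals, fewer cells of a type and less footprint per cell cannot be told apart.

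After 1 day at 4°C, 1958 of the 9945 genes were at least 2-fold higher than at 20°C, which is 19.7%, and 1216 were at least 2-fold lower, which is 12.2%. A total of 7387 genes reached 10 counts, of which 731, or 9.9%, were clearly higher and 358, or 4.85%, clearly lower. Genes that were higher made up 61.7% of all calls and 67.1% of the clear ones. These shares depended on the scaling: the median log2 difference of the 2490 genes with at least 100 counts was 0.24, and with that median set to 0 the calls were 49.7% higher, the clear calls 48.1%. All differences below are on the FPKM scale as deposited, so they stand beside that median of 0.24. The middle 90% of the well covered genes spanned -1.06 to 1.82 on the log2 scale, so that most genes kept their place within a few-fold while a small group moved by 10-fold or more, as the scatter of both columns shows.

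**Figure D1:**
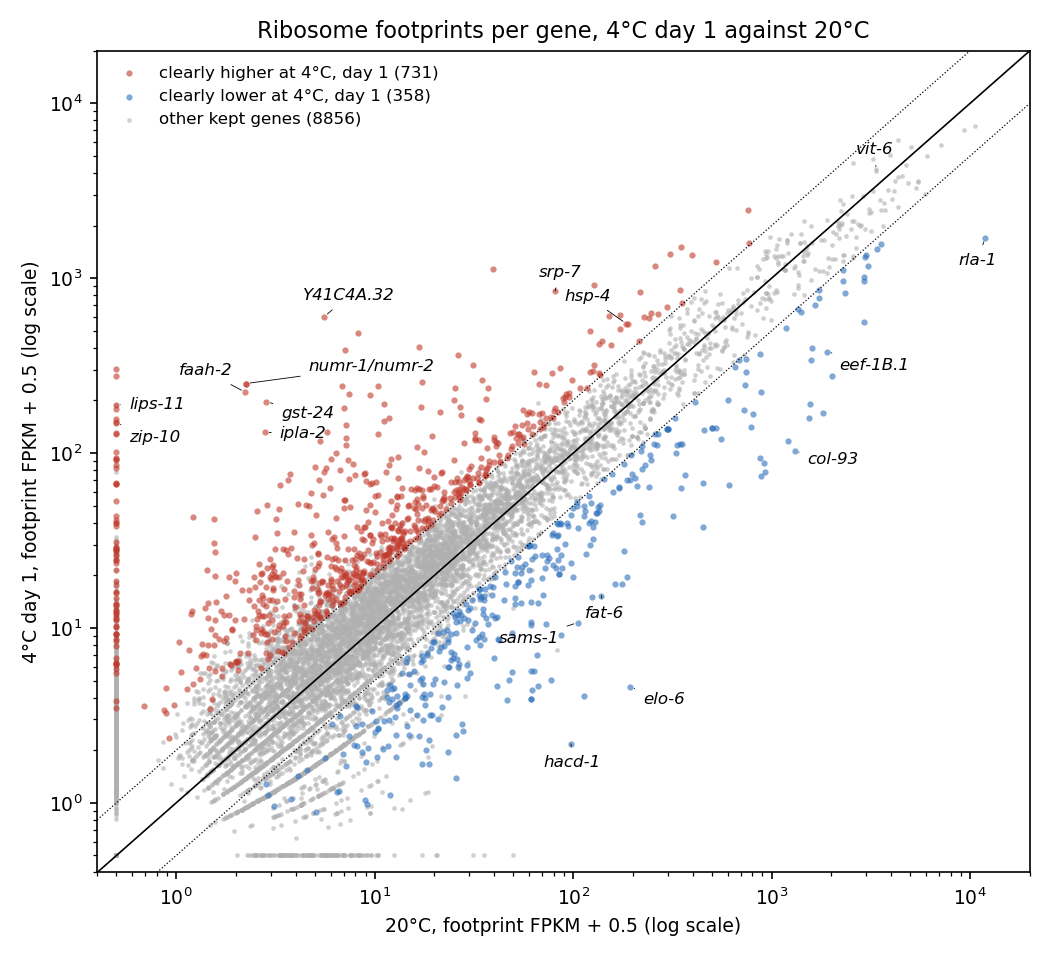
Footprint FPKM + 0.5 of each kept gene at 4°C day 1 (y axis) and at 20°C (x axis), both on log scales. Red points are the 731 clearly higher genes and blue points the 358 clearly lower ones, grey points are the other kept genes, the solid line marks equal values and the dotted lines 2-fold. Genes at the left edge, such as lips-11 and zip-10, had 0 counts at 20°C.

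The largest clear rises went to genes that were almost untranslated at 20°C. Y41C4A.32, on chromosome III, had 603 FPKM from 1403 counts at 4°C, against 5.07 FPKM from 3 counts at 20°C, and was 119-fold higher (95% counting interval 40.6 to 577). The fatty acid amide hydrolase homolog faah-2 had 223 FPKM and 1016 counts at 4°C, against 1.73 FPKM and 2 counts at 20°C, a ratio of 129 (35.7 to 1068). Both genes were thus well covered in the cold column and had only a handful of counts at 20°C. The phospholipase A2 family member ipla-2 reached 131 FPKM (1122 counts) at 4°C, against 2.30 FPKM (5 counts) at 20°C, which is 57.0-fold (24.4 to 176).

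Several leaders are known as answers to stress. The genes numr-1 and numr-2, neighbours on chromosome III named for a nuclear protein induced by metals, shared all their counts and had 249.5 FPKM (561 counts) at 4°C, against 1.75 FPKM (1 count) at 20°C. The glutathione S-transferase gene gst-24 had 196 FPKM (329 counts) at 4°C, against 2.35 FPKM (1 count) at 20°C, an 83.6-fold difference (14.9 to 3313). Among genes that carry only a sequence name, F45D3.4 had 1705 counts at 4°C and 15 at 20°C (28.9-fold), ZK1055.7 had 992 and 8 (31.5-fold) and T19D12.4 had 1077 and 11 (24.9-fold). A further 4 of the leading genes outside the lipases and transcription factors had no count at all at 20°C: F19B10.13 with 254 counts at 4°C, Y47H10A.5 with 242, Y46H3A.5 with 179 and nspe-6, of a nematode-specific peptide family, with 178. Against the floor they were 21.5-fold, 20.5-fold, 15.2-fold and 15.1-fold higher, with lower interval ends of 17.4, 16.5, 12.2 and 12.1.

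A cluster of lipase genes was switched from no detected footprints to strong occupancy. lips-11 (chromosome II, 1108841 to 1111001 in WBcel235) is a lipase-related gene that the study followed as a reporter of cold. It had 188 FPKM from 434 counts at 4°C and 0 counts at 20°C. Against the floor it was 36.8-fold higher, with a lower interval end of 29.8. Its neighbours lips-12 and lips-13, which end at position 1118042, had 23.0 FPKM (51 counts) and 91.7 FPKM (204 counts) at 4°C. Both had 0 counts at 20°C and were 4.32-fold and 17.3-fold higher against the floor. No other kept gene with at least 10 counts lies between these 3 genes, so that they form an unbroken run. Of the 7 kept lips genes, 4 were higher and none lower, and their median log2 difference was 2.45, or 1.57 when members without counts are placed at their bound. The table holds 14 lips genes, and of the 7 kept, 2 lay above 1 FPKM at 20°C and 6 at 4°C. Some were thus kept through other columns than 20°C, so that this share and median are descriptions only. The remaining members moved less: lips-17 had a log2 difference of 2.45 on too few counts for a clear call, and lips-10, lips-5 and lips-15 had 0.96, 0.00 and -0.30.

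Genes of the ER stress response included several clear rises and no fall. Of 13 kept sensors and targets, 6 were higher and none lower, 5 of them clearly, lips-11 included, and the median log2 difference was 0.65, beside 0.18 over all kept genes. The ER chaperone hsp-4, the worm BiP and a standard reporter of IRE-1 activity, had 549 FPKM (1423 counts) at 4°C, against 185 FPKM (122 counts) at 20°C, a ratio of 2.96 (2.46 to 3.60). The transcription factor xbp-1 itself had 79.7 FPKM (183 counts) at 4°C and 36.0 FPKM (21 counts) at 20°C, a ratio of 2.21 (1.41 to 3.66). The serpin gene srp-7, a protease inhibitor that the study assigns to IRE-1, had 843 FPKM (2467 counts) at 4°C, against 80.7 FPKM (60 counts) at 20°C, 10.5-fold higher (8.09 to 13.7). cbp-3, assigned to PEK-1, had 100.3 FPKM (160 counts) against 17.3 FPKM (7 counts), 5.81-fold higher (2.76 to 14.7).

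The sensors at the head of these branches were read from few counts and none was called. ire-1 had 28 counts at 4°C and 10 at 20°C, an FPKM ratio of 0.712 whose interval of 0.336 to 1.64 holds 1. The kinase gene pek-1 had 55 counts at 4°C and 11 at 20°C (ratio 1.27, 0.658 to 2.69), and the membrane-bound factor atf-6 had 13 and 5 (ratio 0.661, 0.221 to 2.37). The intervals hold a 2-fold fall for ire-1, a 2-fold rise for pek-1 and both for atf-6, so that changes of that size in those directions were not detectable at this depth. Of 29 kept ER folding and degradation enzymes, 3 were higher, all of them clearly, and none lower: cup-2, of ER-associated degradation, with 148 FPKM (291 counts) at 4°C and 58.2 FPKM (29 counts) at 20°C, manf-1, an ER-resident survival factor, with 168 and 67.2 FPKM, and hrdl-1 with 15.8 and 3.40 FPKM. The median of that list was 0.20 and turned to -0.04 with the median ratio of all well covered genes set to 1, so that the folding enzymes as a list kept about the place of an average gene.

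Published lists of IRE-1-dependent genes that the study quotes also held more higher than lower genes. Of 116 kept genes that depend on IRE-1 under tunicamycin, a drug that blocks protein glycosylation, 42 were higher and 1 lower, which is 36.2% against 19.7% of all kept genes, and 28 were clearly higher. Of 120 kept genes of lipid stress, 68 were higher, or 56.7%, and 9 lower, with 35 and 3 clear. Of these 120, 91 lay above 1 FPKM at 20°C and 113 at 4°C, so that some were kept through other columns than 20°C. Of 20 kept genes of cold stress at 2°C, 16 were higher and none lower, but these were selected for a rise in the cold in other animals and are not independent of the direction. Of the tunicamycin list, the toxin-resistance gene bre-1 had 122 FPKM (358 counts) at 4°C, against 6.69 FPKM (5 counts) at 20°C. Of the 2°C list, M01G12.9 had 41.4 FPKM (155 counts) against 1.05 FPKM (1 count), and M60.7 had 30.2 FPKM (113 counts) against 1.05 FPKM (1 count). B0205.13, of the lipid stress list, had 242 FPKM (193 counts) at 4°C and 9.87 FPKM (2 counts) at 20°C. The phospholipid enzyme gene plpp-1.1 and tmem-189, on the same list, went the other way, at 3.72-fold lower (1.80 to 7.64) and 6.29-fold lower (1.82 to 24.5).

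Transcription factors known from cold and stress were among the most changed regulators. zip-10 (chromosome V, 11650079 to 11650762) is a bZIP factor linked to the death of cold-shocked worms. It had 148 FPKM from 196 counts at 4°C and 0 counts at 20°C. Against the floor it was 16.6-fold higher, with a lower interval end of 13.4. pqm-1, a zinc finger factor that works opposite the FOXO factor daf-16, had 144 FPKM (341 counts) at 4°C, against 6.67 FPKM (4 counts) at 20°C, 21.7-fold higher (8.39 to 80.0). daf-16 itself had 61.9 FPKM (150 counts) at 4°C and 26.0 FPKM (16 counts) at 20°C, a ratio of 2.38 (1.42 to 4.28). Of 15 kept regulators of cold survival, 8 were higher, or 53.3% against 19.7% of all kept genes, and none was lower. Of these rises 6 were clear, and the median was 1.05. The others of those 6 were hlh-30, the TFEB homolog that controls lysosome and autophagy genes (49.9 FPKM at 4°C, 17.7 FPKM at 20°C), isy-1, a splicing factor known to act on zip-10 (62.2 and 27.6 FPKM), and the cathepsin L gene cpl-1 (1596 and 769 FPKM).

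Other bZIP genes were higher as well. Of 21 kept members of the zip, atf and related families, 10 were higher, or 47.6%, and 1 lower, and 8 of the rises were clear. cebp-1, known from axon regeneration and stress, had 66.6 FPKM (170 counts) at 4°C, against 9.25 FPKM (6 counts) at 20°C, a ratio of 7.20 (3.24 to 19.9). The AP-1 subunits jun-1 and fos-1 had 55 and 28 counts at 4°C, and 2 and 1 counts at 20°C, ratios of 6.99 (1.85 to 59.2) and 7.12 (1.18 to 291). The CREB-like crh-2 had 36 counts at 4°C and 1 at 20°C, but its call was not clear when its longest coding sequence was read (22 and 1 counts). skn-1, the Nrf factor of oxidative stress, had 30.2 FPKM (54 counts) at 4°C and 22.0 FPKM (10 counts) at 20°C and was not called (ratio 1.37, 0.692 to 3.02). hsf-1, the heat shock factor, had 16.4 FPKM (88 counts) at 4°C and 9.55 FPKM (13 counts) at 20°C and was not called either, with an interval of 0.956 to 3.36.

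Autophagy genes, which enclose and degrade cell parts, were higher in 12 of 25 kept members, or 48.0% against 19.7% of all kept genes, and lower in 1. The calls were clear for 8 and 1 of them, and the median was 0.96. The cargo receptor sqst-1, the worm p62, led with 192 FPKM (1060 counts) at 4°C, against 10.7 FPKM (15 counts) at 20°C, 18.0-fold higher (10.8 to 32.2). The ubiquitin-like lgg-1, which coats the autophagosome, had 1355 FPKM (1340 counts) at 4°C and 398 FPKM (100 counts) at 20°C, a ratio of 3.41 (2.78 to 4.22). Its paralog lgg-2 had 93 counts at 4°C and 5 at 20°C (4.73-fold), and the scaffold bec-1 had 168 and 10 (4.27-fold). The member that was lower was epg-2, an adaptor used in embryos, with 10.9 FPKM (60 counts) at 4°C and 35.7 FPKM (50 counts) at 20°C, 3.28-fold lower (2.21 to 4.85). The polyubiquitin gene ubq-1 lay outside that list and was 3.22-fold higher (3.05 to 3.42), with 2444 FPKM at 4°C and 758 FPKM at 20°C.

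Metal and detoxification genes were split. Of 11 kept metal response genes, 7 were higher, or 63.6% against 19.7% of all kept genes, and 1 was lower. Clear rises numbered 5, numr-1 and numr-2 among them. The cadmium-response gene cdr-4 had 153 FPKM (339 counts) at 4°C and 10.6 FPKM (6 counts) at 20°C. The zinc transporter ttm-1 had 30.0 FPKM (80 counts) at 4°C and 5.91 FPKM (4 counts) at 20°C. The iron store ftn-2 had 319 FPKM (435 counts) at 4°C, against 127 FPKM (44 counts) at 20°C, a ratio of 2.51 (1.84 to 3.51). Glutathione S-transferases, which couple glutathione to toxins, were higher in 15 of 31 kept members, or 48.4%, and lower in 5, or 16.1% against 12.2% of all kept genes. Clearly higher ones included gst-16 (36 and 1 counts) and gst-12 (28 and 1 counts), which lie next to gst-24 on chromosome II, and gst-13 (207 counts at 4°C, 8 at 20°C, 6.58-fold), while gst-27 was 3.93-fold lower (1.74 to 8.90). UDP-glucuronosyltransferases went the other way, with 2 of 27 higher and 13 lower, or 48.1%, although only ugt-22 and ugt-12, at 6.56-fold and 4.59-fold lower, had the counts for a clear call.

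**Figure D2:**
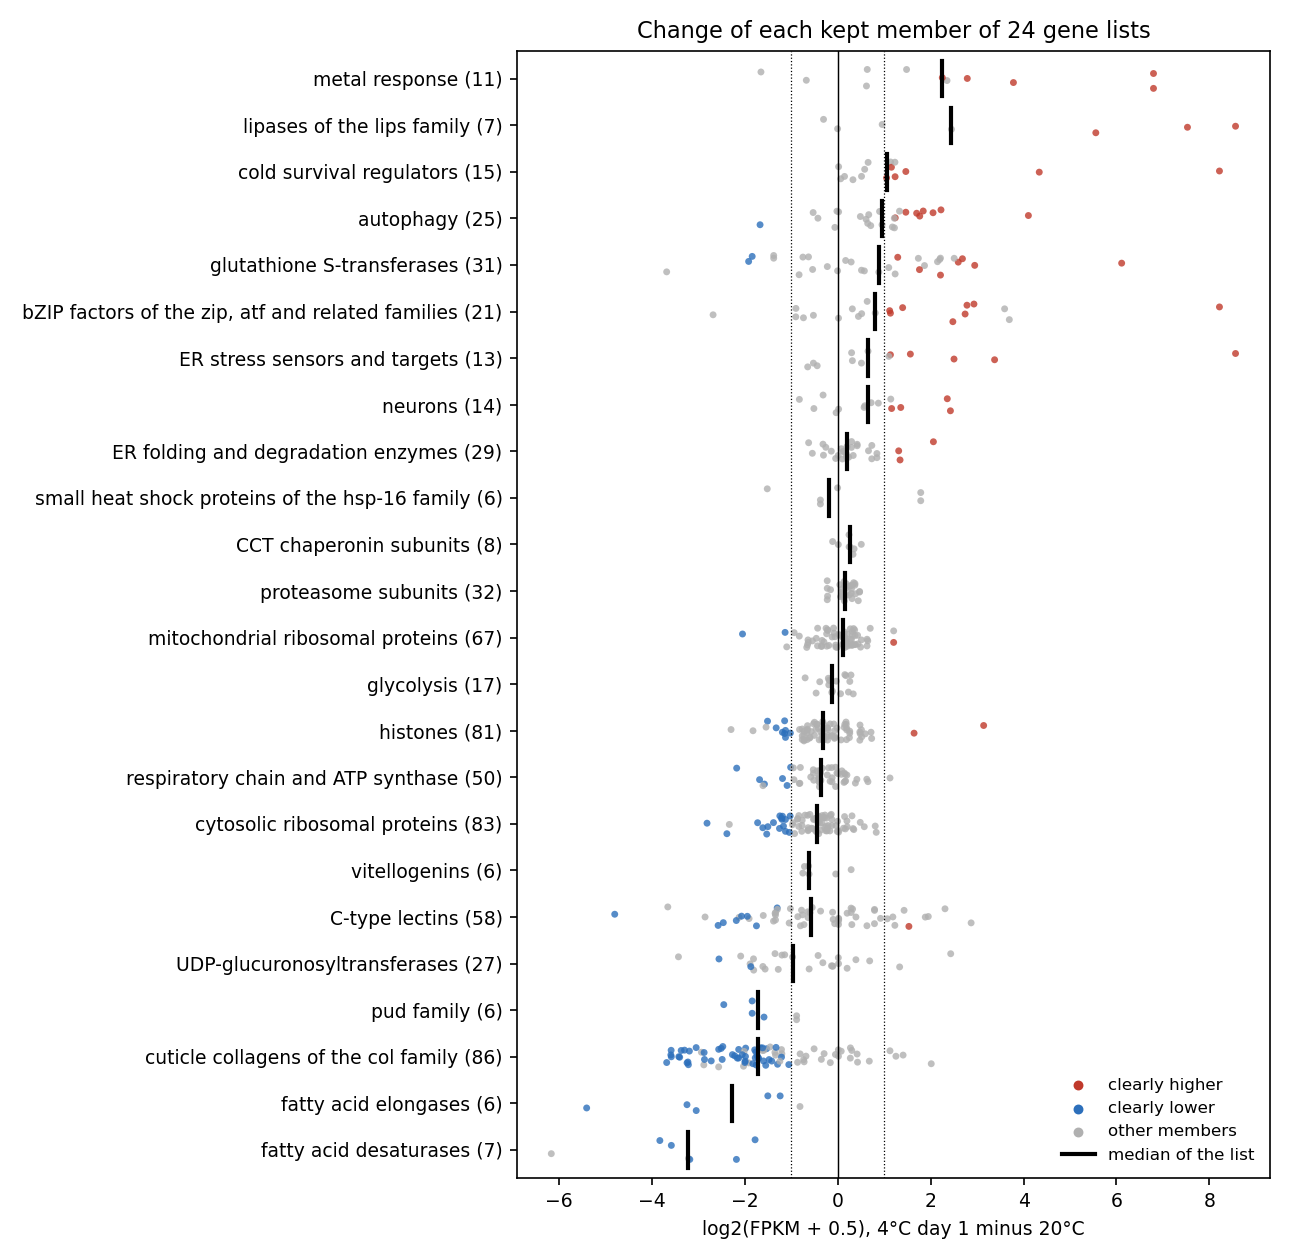
Difference of log2(FPKM + 0.5), 4°C day 1 minus 20°C (x axis), of every kept member of 24 gene lists (y axis, number of kept members in parentheses), with red and blue for clearly higher and clearly lower members, grey for the others and a black bar for each list's median. Metal response and lips genes lie furthest to the right, with medians of 2.25 and 2.45, and pud genes, collagens, elongases and desaturases furthest to the left, with medians of -1.71, -1.71, -2.27 and -3.21.

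Fatty acid desaturases were lower without exception. All 7 kept members were at least 2-fold lower and 5 clearly, with a median of -3.21. The stearoyl-CoA desaturase fat-6 had 14.8 FPKM (35 counts) at 4°C, against 138 FPKM (83 counts) at 20°C, 9.33-fold lower (6.21 to 14.3). fat-5, which acts on palmitic acid, had 3.38 FPKM (9 counts) at 4°C and 45.8 FPKM (31 counts) at 20°C, 13.6-fold lower (6.30 to 32.4), and fat-7, close to fat-6 in function, had 4.44 FPKM (12 counts) and 21.8 FPKM (15 counts), 4.92-fold lower (2.15 to 11.5). The omega-3 desaturase fat-1 had 24.0 FPKM (77 counts) at 4°C, against 83.3 FPKM (68 counts) at 20°C, 3.47-fold lower (2.47 to 4.88).

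The other polyunsaturated fatty acid desaturases were read from short transcripts and are better judged from their longest coding sequences. Over that sequence the delta-12 desaturase fat-2 had 2.66 FPKM (8 counts) at 4°C and 69.4 FPKM (53 counts) at 20°C, 26.1-fold lower (12.3 to 63.5). The delta-6 desaturase fat-3 had 5 counts at 4°C and 13 at 20°C, 10.2-fold lower (3.42 to 36.6), and the delta-5 desaturase fat-4 had 7 and 23, 12.9-fold lower (5.37 to 35.7). With the longest coding sequence all 7 desaturases were therefore clearly lower. The depth of the 4°C column, nearly 4 times that of the 20°C column, makes these raw counts look closer than the levels are.

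Elongases, which lengthen fatty acids, followed the desaturases, with 5 of 6 kept genes lower and all 5 clearly. elo-6 (chromosome IV, 5386629 to 5388559), which makes branched-chain fatty acids with elo-5, had 4.10 FPKM (9 counts) at 4°C, against 194 FPKM (108 counts) at 20°C, 47.2-fold lower (24.0 to 106). elo-5 had 8.67 FPKM (19 counts) at 4°C and 86.1 FPKM (48 counts) at 20°C, 9.94-fold lower (5.73 to 17.9), and elo-2 had 14.6 FPKM (32 counts) and 124 FPKM (69 counts), 8.48-fold lower (5.50 to 13.3). elo-6 and the hydroxyacyl-CoA dehydrogenase gene hacd-1 were the leading falls of all genes, hacd-1 with 1.67 FPKM (4 counts) at 4°C and 97.0 FPKM (59 counts) at 20°C, 58.0-fold lower (21.5 to 220). The peroxisomal transporter-like pmp-5 had 4 counts at 4°C and 29 at 20°C, 28.5-fold lower (10.0 to 112).

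Other lipid genes were mixed. In phosphatidylcholine and methyl donor synthesis, 6 of 18 kept genes were lower, or 33.3% against 12.2% of all kept genes, and 1 was higher. The S-adenosylmethionine synthetase sams-1 had 10.2 FPKM (33 counts) at 4°C, against 105 FPKM (86 counts) at 20°C, 10.3-fold lower (6.79 to 15.8), and the methyltransferase pmt-2 had 97.4 FPKM (340 counts) and 244 FPKM (217 counts), 2.51-fold lower (2.11 to 2.99). Beta-oxidation enzymes beyond hacd-1 showed no common direction, with 3 of 26 higher and 4 lower and a median of 0.00. Acyl-CoA synthetases included acs-17 with 200 counts at 4°C and 5 at 20°C, 10.2-fold higher (4.28 to 31.7), and acs-5 with 8 and 32, 15.7-fold lower (7.10 to 39.5). In propionate breakdown, 2 of 10 genes were lower and none higher, and the acyl-CoA dehydrogenase acdh-1 fell most, to 62.5 FPKM (126 counts) at 4°C, against 351 FPKM (180 counts) at 20°C, 5.62-fold lower (4.45 to 7.11).

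Yolk protein genes were among the most occupied in both columns. The 6 vitellogenins took 15.6% of the counts of all genes at 4°C and 19.2% at 20°C, each gene read from 1 transcript. vit-6 had 4126 FPKM (54314 counts) at 4°C and 3371 FPKM (11281 counts) at 20°C, a ratio of 1.22 (1.20 to 1.25). vit-1, vit-3, vit-4 and vit-5 had between 1155 and 3582 FPKM at 4°C, against 1941 to 5483 FPKM at 20°C, and were 1.53-fold to 1.68-fold lower. vit-2 had 3153 FPKM at 4°C and 3243 FPKM at 20°C, and its sign depended on the scaling, being below 0 as deposited and with the median ratio set to 1 and above 0 with each gene counted once in the total. None of the 6 reached 2-fold. The yolk receptor gene rme-2, for comparison, had 195 FPKM (1437 counts) at 4°C and 160.4 FPKM (301 counts) at 20°C.

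**Figure D3:**
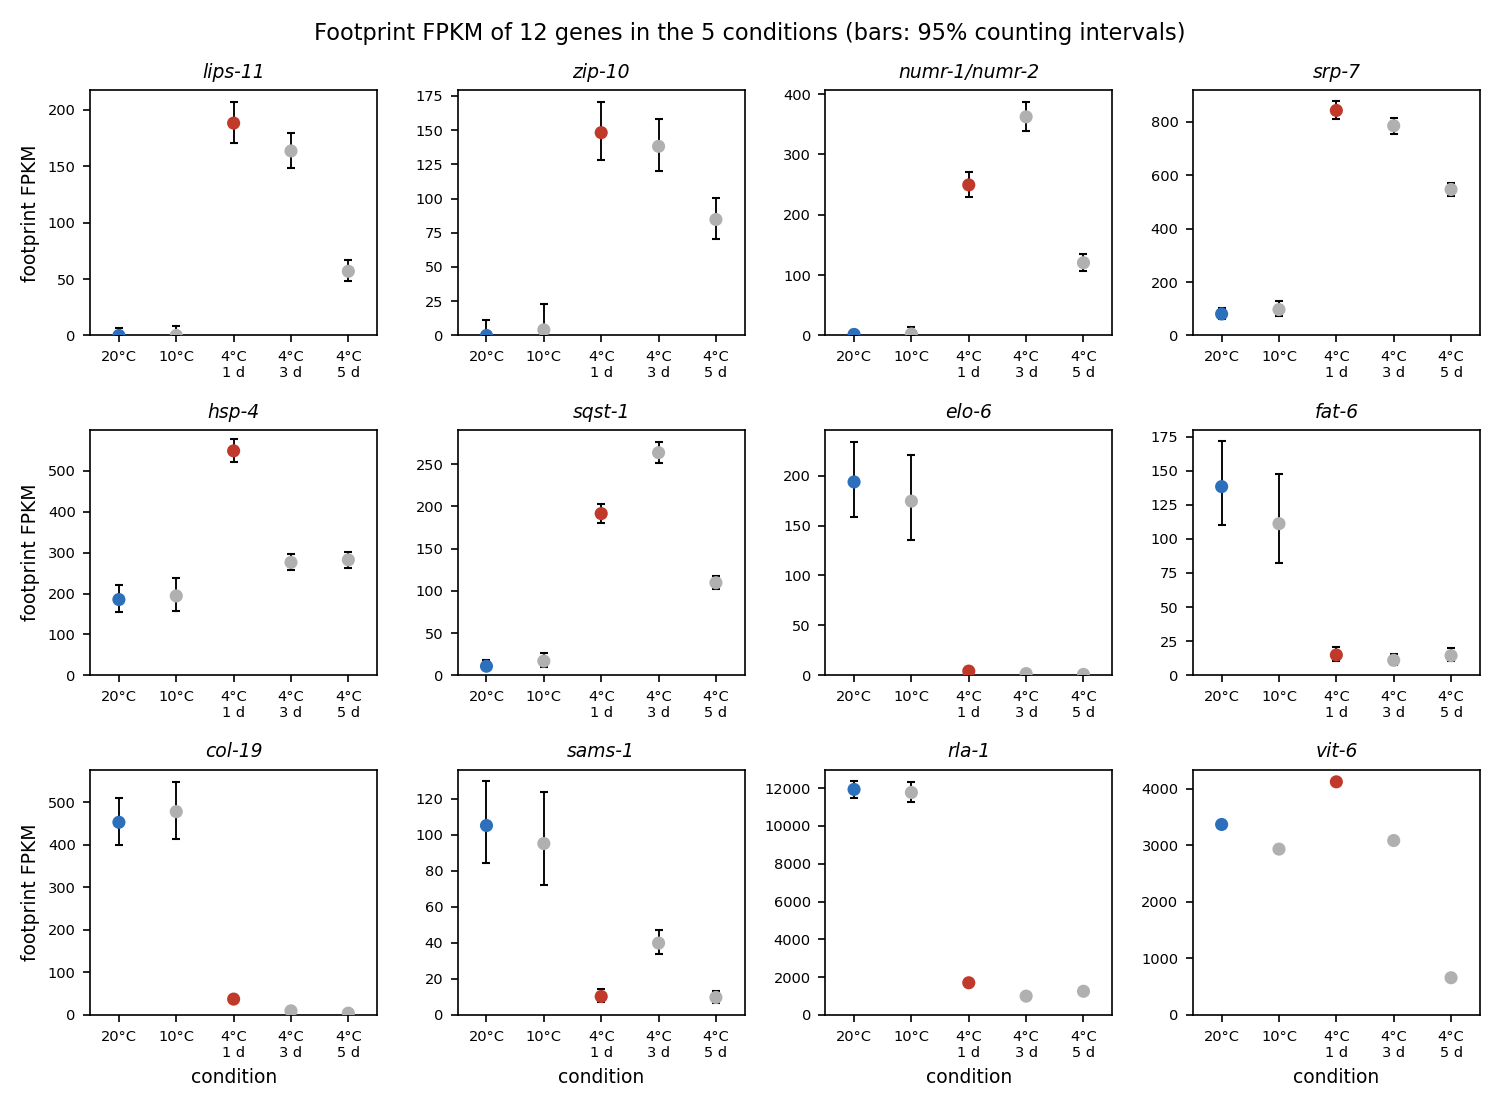
Footprint FPKM (y axis, from 0) of 12 genes in the 5 conditions (x axis), with 20°C in blue, 4°C day 1 in red, the other conditions in grey and bars for the 95% counting interval of each column. lips-11, zip-10 and srp-7 had 188, 148 and 843 FPKM on day 1 at 4°C, while elo-6 fell to 4.10 FPKM and col-19 to 37.2 FPKM.

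Of the 65 gene lists examined, that of the cuticle collagens held the most clear falls in number. By share, the elongases, with 5 of 6 clearly lower, and the desaturases, with 5 of 7, lay above it. Collagens of the cuticle are secreted by the hypodermis and build the outer coat of the worm. Of 86 kept col genes, 63 were lower, which is 73.3% against 12.2% of all kept genes, and 4 were higher. Clear falls numbered 49 and clear rises 0. The family took 1.03% of counts at 4°C and 3.70% at 20°C. The adult collagen col-19 had 37.2 FPKM (86 counts) at 4°C, against 453 FPKM (266 counts) at 20°C, 12.2-fold lower (9.51 to 15.7). On chromosome III (10982139 to 10987873), col-93 and the genes beside it, col-92 and col-94, had 102, 73.2 and 77.3 FPKM at 4°C, against 1310, 882 and 929 FPKM at 20°C, and were 12.8-fold, 12.0-fold and 12.0-fold lower. Counts of col-92 and col-94 were close in every column, and how reads of similar collagens were divided is not known here. col-20, col-101, col-140 and col-179 were 9.83-fold to 10.7-fold lower, each with at least 218 counts at 4°C and 587 at 20°C.

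Other parts of cuticle building gave few falls on day 1. Of 10 kept cuticle collagens with other names, 1 was lower, none clearly, but only 5 of them reached 10 counts. On day 5 at 4°C, 9 of the 10 were at least 2-fold lower than at 20°C, with a median of -1.565. Among 12 enzymes that process or cross-link collagen, 2 were clearly higher, the prolyl hydroxylase dpy-18 with 69 counts at 4°C and 8 at 20°C (2.19-fold, 1.05 to 5.28) and the peroxidase mlt-7 with 102 and 7 (3.70-fold, 1.73 to 9.44), and 1 was lower. Hypodermis markers were evenly spread, with 1 of 14 higher, 2 lower and a median of 0.02.

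The translation machinery moved apart. Of 83 kept cytosolic ribosomal protein genes, 18 were lower, or 21.7% against 12.2% of all kept genes, and none higher. Clear falls numbered 17, with a median of -0.45, and the family's share of counts was 11.8% at 4°C and 15.6% at 20°C. Most of the family lay within 2-fold, and a few members accounted for the larger falls. The acidic stalk protein rla-1 (chromosome I) had 1702 FPKM (1520 counts) at 4°C, against 11935 FPKM (2709 counts) at 20°C, 7.01-fold lower (6.58 to 7.47). rps-12 had 562 FPKM (632 counts) at 4°C and 2933 FPKM (838 counts) at 20°C, 5.22-fold lower (4.70 to 5.79), and rpl-11.2 and rps-14 were 3.31-fold and 3.05-fold lower. Elongation factors showed the same unevenness: eef-1B.1 was 5.01-fold lower (4.52 to 5.56) and eef-1G 3.97-fold lower (3.66 to 4.31), whereas eef-1A.1, which brings the charged tRNA, had 7058 FPKM (26113 counts) at 4°C and 9295 FPKM (8741 counts) at 20°C, 1.32-fold lower.

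Other translation genes kept their level. Of 67 mitochondrial ribosomal protein genes, 2 were higher and 3 lower. Initiation factors gave 2 higher and 1 lower of 35, where the cap-binding ife-1 was 2.08-fold lower (1.64 to 2.61). Of 32 aminoacyl-tRNA synthetases, 1 was lower, iars-2, on 8 counts in each column and with a coding sequence that overlaps another gene. Splicing factors had 3 clear rises of 35 (prp-38, prp-4 and prp-21, at 3.26-fold, 2.23-fold and 2.04-fold higher) and no clear fall. Histone genes were lower in 11 of 81, or 13.6%, near the 12.2% of all kept genes, and higher in 2, with his-3 at 71.5 FPKM (73 counts) at 4°C and 204 FPKM (53 counts) at 20°C. The linker histone hil-1 stood out the other way, with 42 counts at 4°C and 1 at 20°C, and histone copies of 1 class often share reads, so that single members are uncertain.

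Among mitochondrial energy genes, 7 of 50 for the respiratory chain and ATP synthase were lower, or 14%, near the 12.2% of all kept genes, and 1 was higher, with a median of -0.36. The Rieske protein isp-1 had 64.7 FPKM (143 counts) at 4°C, against 208 FPKM (117 counts) at 20°C, 3.22-fold lower (2.50 to 4.14), and cytochrome c, cyc-2.1, had 245 FPKM (219 counts) and 731 FPKM (166 counts), 2.98-fold lower (2.42 to 3.67). In the citric acid cycle 3 of 17 genes were clearly lower: idha-1 (2.66-fold), dlst-1 (2.48-fold) and ogdh-1 (2.32-fold). No glycolysis gene of 17 was called, and their log2 differences spanned -0.70 to 0.34.

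All 8 CCT chaperonin subunits lay between -0.11 and 0.51 and all 32 proteasome subunits between -0.22 and 0.47, with no call in either list. The constitutive HSP70 hsp-1 had 2952 FPKM (15087 counts) at 4°C and 2551 FPKM (3314 counts) at 20°C, a ratio of 1.16 (1.11 to 1.20). The mitochondrial chaperones hsp-6 and hsp-60, reporters of mitochondrial stress, had 248 and 319 FPKM at 4°C, against 310.5 and 423 FPKM at 20°C, 1.25-fold and 1.33-fold lower. Of 19 kept cytosolic HSP70, HSP90 and co-chaperone genes, 2 were clearly higher and 1 clearly lower. The lower one was the co-chaperone dnj-19, with 43.9 FPKM (154 counts) at 4°C and 97.6 FPKM (87 counts) at 20°C, 2.22-fold lower (1.69 to 2.91). The inducible HSP70 copies F44E5.4 and F44E5.5, which shared all counts, had 68 counts at 4°C and 0 at 20°C. They were 5.76-fold higher against the floor.

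Genes of the hsp-16 family were at very low counts on day 1. hsp-16.11 and its copy hsp-16.1, both heat-induced, shared 9 counts at 4°C and 3 at 20°C, and hsp-16.48 and hsp-16.49 shared 15 and 1, so that no member of the family could be called clearly. On day 3 at 4°C the same pairs had 164 and 365 counts. hsp-17, outside the family, was already 12.9-fold higher on day 1 (4.32 to 63.1), with 128 FPKM (152 counts) at 4°C and 9.93 FPKM (3 counts) at 20°C.

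Families of secreted and surface-facing proteins differed in direction. The C-type lectin clec-1 had 3.60 FPKM (5 counts) at 4°C, against 113 FPKM (40 counts) at 20°C, 31.5-fold lower (12.4 to 102). Of 58 kept lectins 21 were lower, or 36.2% against 12.2% of all kept genes. The 9 higher ones were 15.5% against 19.7%, and clear calls were 8 lower and 1 higher. The median of the lectins, -0.57, was -0.24 among the 36 with at least 10 counts and turned to 0.20 with no filter on low values. The pud genes were lower in 4 of 6, all clearly, with pud-3 at 40.6 FPKM (56 counts) at 4°C and 123 FPKM (43 counts) at 20°C. Neuropeptide and insulin-like genes had 47 of 120 higher, or 39.2% against 19.7% of all kept genes, and 14 lower, with 6 and 1 clear. Only 33 of the 120 reached 10 counts, so that most of these calls rest on few counts. Their median of 0.55 was 0.79 among those 33. It was 0.02 over the 87 members with a ratio or bound, with members without counts placed at their bound. The clear rises included nlp-31 (110 counts at 4°C, 1 at 20°C), nlp-24 (324 and 20) and nlp-33 (184 and 13), which belong to a group known for antimicrobial peptides of the skin, and flp-10 (47 and 1).

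Digestive proteases were divided too. Of 24 kept lysosomal proteases and related enzymes, 7 were lower, or 29.2% against 12.2% of all kept genes. The 4 higher ones were 16.7%, below the 19.7% of all kept genes. Clear calls were 6 lower and 3 higher. The aspartic proteases asp-13 and asp-2 were 13.1-fold lower (5.08 to 39.9) and 4.93-fold lower (3.96 to 6.15), while asp-17 had 77.4 FPKM (242 counts) at 4°C and 5.03 FPKM (4 counts) at 20°C, 15.4-fold higher (5.93 to 56.9). The intestinal proton pump subunit vha-6 was 6.94-fold lower (3.71 to 13.4) and was the 1 called gene of 21 vacuolar ATPase subunits. In the intestine list the peptide transporter pept-1 was 5.90-fold lower (3.13 to 11.4) and the microvillus actin act-5 was 2.48-fold higher (2.13 to 2.90). Its 18 markers gave 4 higher, or 22.2%, and 5 lower, or 27.8%, with a median of 0.12. Body wall muscle gave 4 of 27 lower, or 14.8%, near the 12.2% of all kept genes, and 1 higher. Its myosin unc-54 had 49.9 FPKM (781 counts) at 4°C and 136 FPKM (540 counts) at 20°C. Neurons gave 5 of 14 higher, or 35.7% against 19.7% of all kept genes, and none lower. Among the neuron markers, egl-3, the proprotein convertase, had 84 and 8 counts. The part of these tissues in the changes of other genes was not tested.

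The largest falls also held genes outside every list. gfi-1 on chromosome V (6392537 to 6399931) had 17.4 FPKM (299 counts) at 4°C, against 175 FPKM (764 counts) at 20°C, 10.1-fold lower (8.78 to 11.5). The next gene, F57F4.4, had 316 counts at 4°C and 786 at 20°C, 9.79-fold lower, and its counts ran so close to those of gfi-1 in all 5 columns that the pair is uncertain as separate genes. pes-2.1 and pes-2.2, which shared all counts, had 9 at 4°C and 41 at 20°C, 17.9-fold lower (8.58 to 41.9).

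Some clear genes lay side by side on the chromosomes. Runs of at least 3 neighbours with the same clear direction, counted over genes with at least 10 counts, held 54 of the 731 higher genes in 16 runs and 28 of the 358 lower genes in 8 runs. Besides the lips genes and gst-24, gst-12 and gst-16, they included kreg-1, F53A9.1, F53A9.6, F53A9.7 and F53A9.8 on chromosome X (8709764 to 8718904), a group of short genes with 105 to 179 counts each at 4°C and 0 to 3 counts each at 20°C. Among the falls were skr-13, skr-9, skr-8 and skr-12 on chromosome IV, subunits of ubiquitin ligases, with 7 to 9 counts each at 4°C and 17 to 25 at 20°C, at 9.55-fold to 12.3-fold lower, and the pgph-1, pgph-3 and pgph-2 group on chromosome V. These runs were picked after their values were seen, and copies in such clusters can share reads. Chromosome V held more clear falls than the others, 107 of 1221 genes or 8.76%, against 4.85% of all 7387 and 2.94% on chromosome III.

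Most of the change was not yet present after the mild step. At 10°C, 36 genes were clearly higher and 10 clearly lower than at 20°C, of 4972 with at least 10 counts. The depth was lower, at 486109 counts over all transcripts. Over all 9945 kept genes, 1214 were at least 2-fold higher and 905 at least 2-fold lower at 10°C. Of the 731 genes clearly higher on day 1, 153 were at least 2-fold higher at 10°C, 19 of them clearly, and 575 lay nearer to their 20°C level than to their day 1 level. Of the 358 clearly lower genes, 30 were at least 2-fold lower at 10°C, 5 clearly, and 322 lay nearer to 20°C. The median part of the day 1 difference that was already there at 10°C was 0.24 for the higher genes and 0.11 for the lower ones. Both sets were chosen partly by their 20°C level, which is also the base at 10°C, so that these values are descriptions. At 10°C gfi-1 had 87.5 FPKM (275 counts), and Y41C4A.32 and faah-2 had 20 and 12 counts.

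The 3 columns at 4°C share their 20°C column, so that their ratios to it are not independent, and they are set side by side only. Of the 731 higher genes, 657 were at least 2-fold higher on day 3 and 529 on day 5, and 272, or 37.2%, had their highest level of the 5 columns on day 1, against 13.2% of all kept genes. Y46H3A.5 was the sharpest of the named ones, with 179 counts on day 1, 8 on day 3 and 14 on day 5, and bre-1 had 358, 20 and 8. Of the 358 lower genes, 333 were at least 2-fold lower on day 3 and 342 on day 5, and 258, or 72.1%, had their lowest level on day 5, against 25.8% of all kept genes. Both sets were chosen for their day 1 level, so that these shares are descriptions. The median of the lower genes was -1.66 on day 1, -2.23 on day 3 and -2.83 on day 5, whereas that of the higher genes was 1.71, 1.75 and 1.51. col-101 shows the course of many collagens, with 86.8 FPKM on day 1, 4.97 on day 3 and 1.04 on day 5. sams-1 differed from that course, with 10.2 FPKM on day 1, 39.9 on day 3 and 9.71 on day 5.

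**Figure D4:**
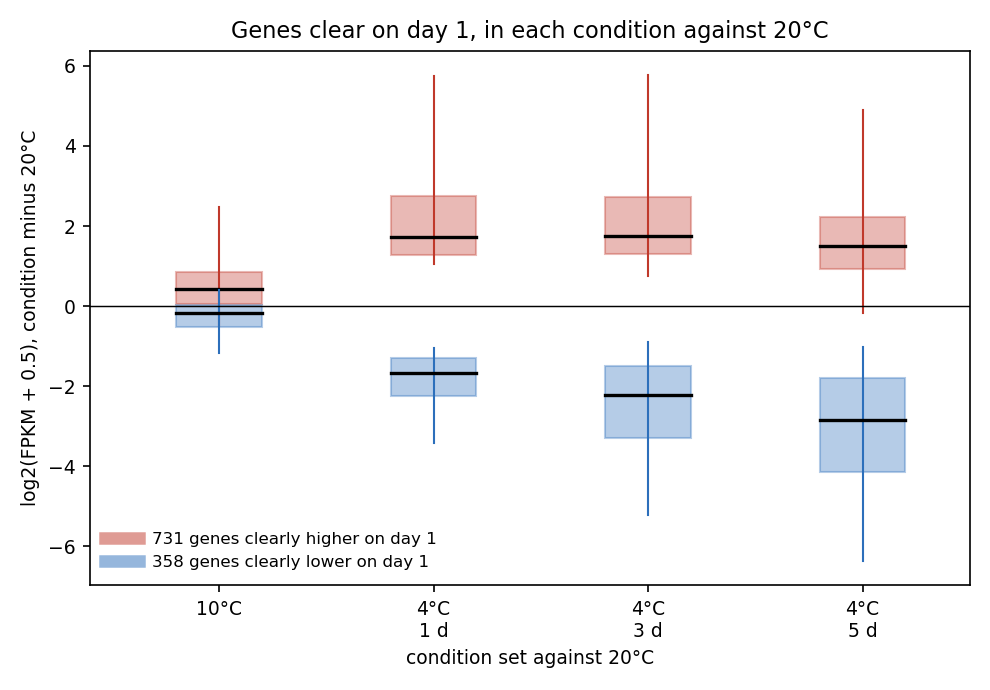
Difference of log2(FPKM + 0.5) from 20°C (y axis) in each other condition (x axis) for the 731 genes clearly higher (red) and the 358 genes clearly lower (blue) on day 1 at 4°C, with boxes for the middle 50%, lines for the middle 90% and black bars for the medians. Medians at 10°C were 0.43 and -0.18, beside 0.06 over all kept genes, and the median of the lower genes was -2.83 on day 5.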

How the data were processed

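Per the methods and processing notes, the authors trimmed footprint reads with fastp 0.23.4, removed contaminants, aligned to WBcel235 with STAR 2.7.11b, computed expression with DESeq2 within ORFik, and deposited FPKM of each transcript's coding sequence in 1 column per condition, pooled over 2 replicates. The sources used here do not state the pooling (sum or mean), the annotation release or the strand rule. The study's RNA-seq was not analysed here, and 1 column of a further temperature matched no sample and was not used.

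Multiplying the deposited FPKM by the coding length of Ensembl release 115 gave back counts, and 100% of values of 31865 transcripts came out whole within 0.001. For 3499 genes of 5 to 20 counts, the squared z between 10°C and 20°C averaged 0.619, below the value for independent reads. The pseudocount was 0.5 FPKM, the minimum mean 1 FPKM, the call 2-fold, and intervals were Clopper-Pearson at 95% (Python 3.11.15, SciPy 1.17.1). Steps were tested on simulated data.

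The members, the 65 gene lists and the rules were chosen with earlier results of these data known. Named were, per direction, the 15 clear genes whose interval lay furthest from 1, then up to 4 clear members of each list described, members known by their role and genes the study names. Genes outside this rule, such as those in runs and ubq-1, were chosen after their values were seen. Of the kept genes, 83 overlap another coding sequence, and 96 genes share all counts with another. Alternatives covered pseudocount, filter, transcript, scaling, fold and interval.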

Additional observations from a re-analysis of the deposited data

How the results depend on the processing

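No paired analysis was possible because the deposited table holds 1 pooled column per condition, and leaving out replicates was not run for the same reason. The number of genes at least 2-fold higher, 1958, became 1099 with a minimum mean of 5 FPKM, 2963 with no filter, 3149 at 1.5-fold and 792 at 4-fold. The number of genes at least 2-fold lower, 1216, became 488, 1985, 2032 and 373 under the same choices, and 494 among genes with at least 10 counts. The genes clearly higher, 731, became 483 with the median ratio set to 1 and 204 with the interval wholly past 2-fold. The genes clearly lower, 358, became 156 with the interval wholly past 2-fold and 203 with at least 50 counts. Counting each gene once in the total, a scaling added after the data were seen, gave 853 and 311 clear genes. Of 65 list medians under 714 alternatives, 27 values in 17 lists moved outside an interval taken from the spread of the member values. That interval does not measure counting error. Of 201 single genes under 1407 alternatives, 38 values in 26 genes moved by more than their counting error. With the median ratio set to 1, the medians of the ER folding enzymes, mitochondrial ribosomal proteins and proteasome subunits turned to -0.04, -0.13 and -0.08. The median of the hsp-16 family, -0.19, was 0.71 among genes with at least 10 counts. The cause of these shifts was not tested.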

Other observations

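Genes of development and reproduction not described above moved little in number. Of 28 kept maternal mRNA-binding regulators, which hold mRNAs silent in oocytes and embryos, 4 were higher, or 14.3% against 19.7% of all kept genes, and none lower. The clear ones were daz-1 with 59.1 FPKM (235 counts) at 4°C and 21.8 FPKM (22 counts) at 20°C, mex-6 with 160.3 and 77.0 FPKM, and pos-1 with 236 and 117 FPKM. Eggshell and egg activation genes gave 1 of 18 higher and 1 lower: the kinase mbk-2, needed for the switch from egg to embryo, was 2.43-fold higher (1.59 to 3.86), and bmk-1 was 2.36-fold lower (1.41 to 3.89). Of 68 kept sperm genes, 11 were higher, or 16.2%, and 5 lower, or 7.35%, none clearly. Both shares lay below the 19.7% and 12.2% of all kept genes.

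Trehalose is a sugar that protects membranes and proteins in dry or cold worms. Its synthase gene tps-1 had 61 counts at 4°C and 4 at 20°C, 3.88-fold higher (1.44 to 14.7). The trehalase tre-5 had 44 and 0 counts, 3.73-fold higher against the floor. A second trehalase, tre-3, was 5.62-fold lower (1.93 to 17.4). Nuclear hormone receptors, a large family of regulators, had 12 of 75 kept members higher, or 16%, and 10 lower, or 13.3%. These shares were near the 19.7% and 12.2% of all kept genes. The 3 clear ones were all rises: nhr-3 with 99 counts at 4°C and 1 at 20°C, nhr-41 with 37 and 1, and nhr-70 with 33 and 2. Transthyretin-related genes had 12 of 47 higher, or 25.5%, and 7 lower, or 14.9%. They were led by ttr-26 with 105 counts at 4°C and 2 at 20°C, 13.3-fold higher (3.60 to 112).

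Clear falls were more frequent among shorter coding sequences. In 4 equal parts of the 7387 genes by coding length, 5.52%, 7.42%, 3.47% and 2.98% were clearly lower, shortest first, and the medians were 0.17, 0.22, 0.29 and 0.31. Genes of longer coding sequence have more counts at the same level. Among genes with at least 100 counts, the same 4 parts had 6.88%, 9.68%, 3.53% and 2.84% clearly lower. The part of length, or of single families, in these shares was not tested.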
